A study of Mus musculus with 24 samples.

Results

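Fos, Fosb, Fosl1, Fosl2, Jun, Junb, Egr1, Atf3, Nr4a1 and Dusp1 form the set of immediate early and AP-1 genes described here. They were taken by symbol from the table of normalized counts, and all 10 were found among its 17270 genes. The table covers mouse brain microvessels, the small vessels isolated from brain tissue, in 24 libraries that form 8 groups of 3 by surgery, hemisphere and time point. Transient middle cerebral artery occlusion (tMCAO) lasted for 60 min in male C57BL/6J mice aged 10 to 12 weeks and was followed by reperfusion, whereas in sham surgery the filament was pulled back as soon as it had reached the vessel. Ipsilateral and contralateral hemispheres were collected 24 h or 7 days later. Each library pooled 3 hemispheres, so that 9 animals stood behind a group, and the animals carried no genetic change. Supportive care followed a protocol adapted to the condition of each animal.

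Immediate early genes are transcribed within minutes of a stimulus, without new protein synthesis, and their RNA is short-lived. Fos and Jun proteins pair through leucine zippers into the transcription factor AP-1, which binds the TPA response element. MAP kinases activate it, and phosphatases such as Dusp1 switch these kinases off again. In brain tissue the same genes respond to neuronal activity, to ischemia and to tissue injury.

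The deposited values are DESeq2-normalized counts, rounded to whole numbers, and reach 15924780 to 18787932 per library. Each value was raised by 1 and put on the log2 scale, and limma was fitted over the 8 groups to 15982 genes whose mean exceeded 5 normalized counts, which all 10 members did. A gene was called with a Benjamini-Hochberg adjusted p under 0.05 and a change beyond 1.5-fold in either direction. The 10 endothelial markers, among them Cldn5 and Pecam1, summed to 347796 to 579498 normalized counts per library, against 2136 to 13607 for 8 neuron markers. In bulk libraries of this kind, a change in the share of a cell type and a change in RNA per cell cannot be told apart.

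Relative to the summed length of their exons and averaged over all libraries, Junb had the highest level, with 1083 normalized counts per kilobase. Dusp1 followed with 789.1 and Jun with 756.8 normalized counts per kilobase. Fosl2, Egr1 and Nr4a1 lay between 241.4 and 273.7 on this scale, Fos at 156.1 and Atf3 at 118.1. Fosl1 with 48.1 and Fosb with 14.37 normalized counts per kilobase were the lowest on average.

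Promoters are shown for Fos and Junb, which moved most closely together across libraries, and for Dusp1, which held the complete cAMP response element. RefSeq (GRCm38.p6) gave the 250 bases before the transcription start for 8 of the members, read 5′ to 3′ on the strand of the gene. The Dusp1 window is printed up to its first annotated exon base. Capitals mark TGACGT, the first 6 bases of the cAMP response element TGACGTCA, searched on both strands.
Fos, chr12:85473640-85473889, + strand: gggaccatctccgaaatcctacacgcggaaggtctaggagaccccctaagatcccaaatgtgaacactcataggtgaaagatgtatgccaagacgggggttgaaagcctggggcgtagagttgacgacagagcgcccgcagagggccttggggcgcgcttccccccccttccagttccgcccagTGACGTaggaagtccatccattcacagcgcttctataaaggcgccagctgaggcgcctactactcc
Junb, chr8:84978749-84978998, - strand: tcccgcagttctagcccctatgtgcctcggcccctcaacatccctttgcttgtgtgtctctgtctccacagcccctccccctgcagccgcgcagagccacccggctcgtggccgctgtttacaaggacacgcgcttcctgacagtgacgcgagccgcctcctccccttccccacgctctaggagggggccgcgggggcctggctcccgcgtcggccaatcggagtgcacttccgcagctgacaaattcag
Dusp1, chr17:26508520-26508722, - strand: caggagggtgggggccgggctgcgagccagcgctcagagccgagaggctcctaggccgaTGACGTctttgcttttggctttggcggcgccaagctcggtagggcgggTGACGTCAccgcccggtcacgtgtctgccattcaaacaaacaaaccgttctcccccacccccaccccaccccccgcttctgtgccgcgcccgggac

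TGACGT was found in the windows of Fos, Dusp1 and Atf3, that is in 3 of 8, against 6.47% of all 32851 RefSeq promoter windows of this length. The complete TGACGTCA, which contains TGACGT on both strands, was found in Dusp1 alone among the 8 and in 1.55% of all windows. The AP-1 motif TGANTCA was in 0 of 8 members and in 6.75% of all windows. These are matches of letters within a short window.

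Among the members, Fosl1 (chr19:5447703-5455945, GRCm38) differed most between the groups. Fosl1 encodes Fra-1, a Fos protein that lacks the transactivation domain of c-Fos. In the ipsilateral hemisphere 24 h after tMCAO, libraries 1 to 3 held 841, 677 and 258 normalized counts of Fosl1, against 23, 5 and 46 after sham surgery. The contralateral hemisphere held 16, 151 and 7 normalized counts after tMCAO and 11, 3 and 6 after sham. The 3 ipsilateral tMCAO libraries thus exceeded each of the other libraries of that time point.

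After 7 days, Fosl1 was at 24, 9 and 4 normalized counts in the ipsilateral tMCAO libraries and at 30, 0 and 133 in those of sham surgery. Its contralateral values were 64, 2 and 2 normalized counts after tMCAO and 11, 2 and 22 after sham. All of these groups overlapped, and the second ipsilateral sham library was listed at 0. By the mean, the ipsilateral tMCAO group at 24 h with 592 ± 300.7 (SD, n = 3) came first and did not overlap with the group next in order, contralateral tMCAO at 24 h with 58 ± 80.67. The other 7 groups overlapped with their neighbours in the order.

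Fosl1 rose 24 h post-stroke by 4.81 on the log2 scale over sham ipsilateral (SE 1.47, adjusted p = 0.0187, limma). It was the only member called there, that is 1 of 10, where 10.0% of all tested genes were called higher. Over the contralateral hemisphere of tMCAO animals the log2 difference of Fosl1 was 4.27 (SE 1.47, adjusted p = 0.0394), again as 1 of 10 members beside 8.51% of all genes. With a block by library number, Fos, Junb, Egr1 and Nr4a1 were called there too. The sources do not state that equal numbers share animals. Fosl1 was the only member whose ipsilateral and contralateral libraries did not overlap, where 21.7% of all genes lay higher without overlap. From 24 h to 7 days in the ipsilateral tMCAO hemisphere, Fosl1 fell by 5.62 (SE 1.47, adjusted p = 0.0116). These 3 comparisons share the ipsilateral tMCAO libraries of 24 h and are not independent of each other.

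Single libraries decided these calls of Fosl1. The call over sham was lost without library 1 or 2 of the ipsilateral tMCAO group (adjusted p = 0.0648 and 0.0577) or library 2 of the sham group (0.0813), with log2 differences of 3.98 to 4.63. The call over the contralateral hemisphere was lost without ipsilateral library 1 or 2 (0.121 and 0.102) or contralateral library 1 or 3 (0.109 and 0.16), and also with a pseudocount of 0.5 (0.0554) or without the mean-variance trend (0.0524). The call between time points was lost without library 1 of 24 h or library 3 of 7 days (adjusted p = 0.0516 for each). The log2 difference of Fosl1 kept its sign in each of these fits. The effect of tMCAO over sham on Fosl1 at 7 days, less that at 24 h, was -5.38 (SE 2.08, adjusted p = 0.104), and it was called only without library 2 of the ipsilateral sham group of 7 days (-7.39, adjusted p = 0.0151).

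**Figure D1:**
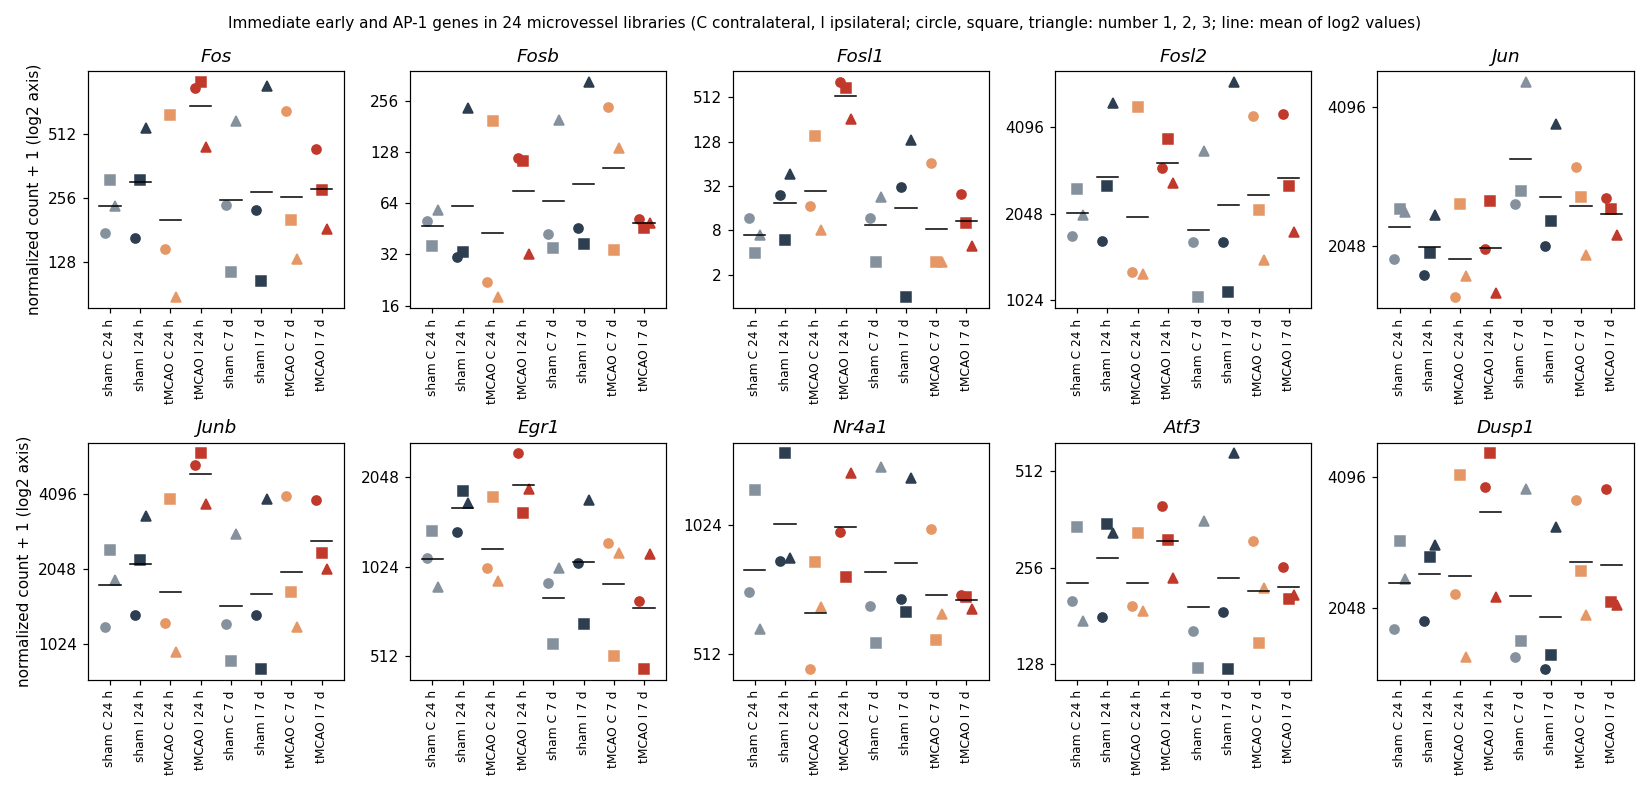
Normalized counts plus 1 of the 10 members in all 24 libraries on a log2 axis, by group (C contralateral, I ipsilateral), with the symbol giving the library number and a line for the mean of the log2 values. Fosl1 at 258 to 841 normalized counts in the ipsilateral tMCAO group of 24 h stands clear of the other groups, whereas for most members the libraries of a group lie far apart.

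Fos (chr12:85473890-85477273), the founding member of the family, was present in each library. In the ipsilateral hemisphere 24 h after tMCAO it reached 847, 907 and 443 normalized counts, against 165, 311 and 545 after sham surgery. The contralateral libraries of 24 h held 145, 631 and 86 normalized counts of Fos after tMCAO and 174, 310 and 233 after sham. The ipsilateral tMCAO group was the highest on average but overlapped with both of the groups it was compared with.

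At 7 days, Fos was at 437, 278 and 182 normalized counts in the ipsilateral tMCAO libraries and at 223, 102 and 867 after sham. The contralateral libraries held 659, 200 and 131 normalized counts after tMCAO and 235, 113 and 588 after sham. The highest value at this time point was thus that of a sham library. Neighbours in the order of the 8 group means overlapped throughout for Fos.

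In the fit over the 8 groups without a block, none of the differences of Fos was called. 24 h post-stroke, the log2 difference was 1.20 over sham ipsilateral (SE 0.78, 95% confidence interval -0.44 to 2.83, adjusted p = 0.254) and 1.80 over the contralateral hemisphere (interval 0.17 to 3.44, adjusted p = 0.0988). Without contralateral library 2, which held 631 normalized counts, the latter came to 2.63 for Fos (adjusted p = 0.0242). From 24 h to 7 days after tMCAO, the ipsilateral groups of Fos did not overlap (log2 difference -1.31, SE 0.78, adjusted p = 0.256). With only the compared groups in the fit, this difference passed (adjusted p = 0.047).

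Fosb, a close homolog of Fos, had the fewest normalized counts per kilobase. It held 117, 113 and 31 normalized counts in the ipsilateral hemisphere 24 h after tMCAO and 30, 32 and 230 after sham, and 51, 45 and 48 against 45, 36 and 331 after 7 days. Contralateral values of Fosb were 21, 193 and 17 (tMCAO) and 49, 35 and 57 (sham) at 24 h, and 233, 33 and 135 against 41, 34 and 196 at 7 days. In 5 of the groups 1 library alone exceeded 190 normalized counts, the ipsilateral tMCAO groups not among them. Its log2 difference to sham ipsilateral was 0.29 (SE 0.99, adjusted p = 0.849) at 24 h and -0.76 (SE 0.99, adjusted p = 0.674) at 7 days.

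Fosl2, which encodes Fra-2, had the most RNA of the Fos family per kilobase, with 273.7 normalized counts. Its ipsilateral libraries at 24 h held 2958, 3716 and 2621 normalized counts after tMCAO and 1637, 2551 and 4962 after sham. At 7 days these were 4538, 2547 and 1764 after tMCAO against 1624, 1094 and 5909 after sham. The highest library of each pair of groups was from sham surgery. The contralateral libraries ranged from 1048 to 4827 normalized counts, and no difference of Fosl2 was called, with 0.16 (SE 0.61) over sham ipsilateral at 24 h and 0.32 (SE 0.61) at 7 days on the log2 scale.

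Junb (chr8:84976910-84978718) encodes a Jun protein that is a weaker activator than c-Jun. 24 h after tMCAO, the ipsilateral libraries held 5376, 5969 and 3747 normalized counts of Junb, against 1342, 2224 and 3339 after sham surgery. The contralateral libraries held 1242, 3901 and 952 normalized counts after tMCAO and 1207, 2455 and 1861 after sham. The ipsilateral tMCAO libraries were all above those of sham, and contralateral library 2 fell among them.

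At 7 days, Junb was at 3890, 2384 and 2045 normalized counts in the ipsilateral tMCAO libraries and at 1348, 817 and 3901 in those of sham. The contralateral values were 4009, 1665 and 1201 after tMCAO and 1239, 878 and 2842 after sham. These groups overlapped. Although the groups of 24 h were separate, the log2 difference of Junb over sham ipsilateral of 1.20 was not called (SE 0.59, interval -0.03 to 2.42, adjusted p = 0.127). Junb and Fosl1 were the 2 of 10 members without overlap there, whereas 25.0% of all genes lay without overlap above sham.

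In the fit without a block, the log2 difference of Junb over the contralateral hemisphere was 1.57 (SE 0.59, adjusted p = 0.057), and 2.18 without contralateral library 2 (adjusted p = 0.0145). With only the compared groups in the fit, the difference of Junb over sham passed as well (adjusted p = 0.0234). At 7 days it was 0.71 over sham (SE 0.59, adjusted p = 0.465).

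Jun (chr4:95049034-95052222), which encodes c-Jun, was nearly equal in both ipsilateral groups of 24 h. It was at 2023, 2560 and 1620 normalized counts in the ipsilateral hemisphere 24 h after tMCAO and at 1779, 1985 and 2394 after sham. At 7 days, the corresponding values were 2600, 2462 and 2165 against 2054, 2328 and 3756. These values lay close together, and the log2 difference over sham ipsilateral was -0.004 (SE 0.25, interval -0.52 to 0.52) at 24 h and -0.13 (SE 0.25) at 7 days. The highest value of Jun in the series, 4647 normalized counts, was in contralateral sham library 3 of 7 days.

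Egr1, a zinc finger transcription factor induced by serum and by MAP kinase signaling, was called over time. In the ipsilateral hemisphere after tMCAO, Egr1 went from 2468, 1548 and 1870 normalized counts at 24 h to 783, 462 and 1130 at 7 days. The sham ipsilateral libraries held 1337, 1847 and 1683 normalized counts at 24 h and 1053, 654 and 1722 at 7 days. The tMCAO groups were apart from each other, whereas the sham groups overlapped.

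Egr1 fell by 1.37 on the log2 scale between the time points after tMCAO (SE 0.38, adjusted p = 0.0158). Egr1 and Fosl1 were the 2 of 10 members called lower there, beside 8.44% of all genes. The call for Egr1 was lost without library 1 of 24 h (-1.20, adjusted p = 0.0804) or library 2 of 7 days (-1.03, adjusted p = 0.0895). The same interval after sham gave -0.60 (SE 0.38, adjusted p = 0.514), and its effect of tMCAO over sham at 7 days less that at 24 h was -0.77 (SE 0.54, adjusted p = 0.381). Against sham ipsilateral, Egr1 differed by 0.26 at 24 h and by -0.51 at 7 days (SE 0.38 for each, not called).

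Nr4a1, an orphan nuclear receptor, lay at 990, 773 and 1360 normalized counts 24 h after tMCAO and at 704, 694 and 651 after 7 days in the ipsilateral hemisphere. These groups were separate but not called (log2 difference -0.57, SE 0.37, adjusted p = 0.293). Fos, Fosl1, Egr1 and Nr4a1, 4 of 10 members, lay without overlap below their values of 24 h, against 19.9% of all genes. Sham ipsilateral libraries held 844, 1511 and 857 normalized counts of Nr4a1 at 24 h and 688, 640 and 1322 at 7 days, and its differences from tMCAO were -0.02 and -0.29 (SE 0.37).

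Atf3, a stress-induced factor of the ATF family that pairs with Jun proteins, held 397, 311 and 237 normalized counts in the ipsilateral hemisphere 24 h after tMCAO. After sham it held 179, 350 and 327 normalized counts. At 7 days it was at 257, 204 and 209 against 185, 123 and 580 normalized counts. The groups overlapped, with log2 differences of 0.17 (SE 0.47, adjusted p = 0.807) at 24 h and -0.09 (SE 0.47, adjusted p = 0.925) at 7 days.

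Dusp1, the phosphatase that inactivates p38 and JNK and is itself an immediate early gene, reached 3881, 4640 and 2173 normalized counts in the ipsilateral hemisphere 24 h after tMCAO. Sham libraries held 1917, 2685 and 2856 normalized counts. At 7 days, Dusp1 was at 3852, 2109 and 2076 against 1485, 1601 and 3151. In each case 2 libraries of a group lay close and the other was apart, and the log2 differences of 0.47 at 24 h and 0.39 at 7 days (SE 0.40 for each) were not called.

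**Figure D2:**
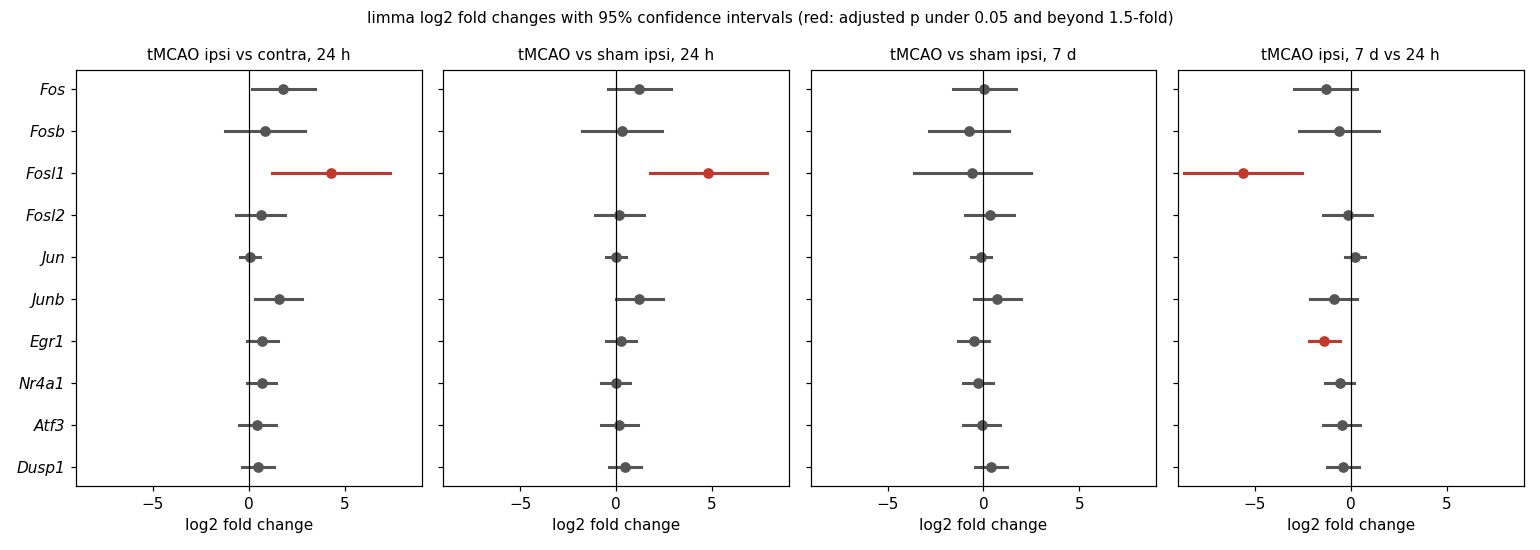
Log2 fold changes from limma with 95% confidence intervals for the 10 members in 4 comparisons, in red where a gene was called. Fosl1 was called in 3 of the comparisons and Egr1 in 1, and for tMCAO against sham at 7 days all 10 intervals include 0.

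Over the 10 members, the median log2 difference 24 h post-stroke was 0.27 over sham ipsilateral and 0.69 over the contralateral hemisphere, with -0.02 over all genes in both. At 7 days it was -0.11 over sham, with 0.03 over all genes, and 0 of 10 members were called, beside 13.2% of all genes. No member reached an unadjusted p under 0.05 at 7 days. Ipsilateral against contralateral at 7 days likewise called 0 of 10, where 3.03% of all genes were higher and 9.98% lower. A difference in the effect of tMCAO over sham between the time points was called for 0 of 10 members, beside 8.12% of all genes, and 1 of them, Fosl1, had an unadjusted p under 0.05.

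Between the hemispheres of sham-operated animals 0 of 10 members were called at either time point, as were 0% of all genes, and 0 of the members had an unadjusted p under 0.05. The ipsilateral side was nonetheless higher in the mean of log2 values for 9 of 10 members at 24 h (median 0.37) and for 8 of 10 at 7 days (median 0.22). The medians over all genes were -0.01 and -0.002. Egr1 was higher on the ipsilateral side in all 3 same-numbered pairs of sham libraries at both time points, and Jun in 0 of 3. After tMCAO, Fos, Fosl1, Junb and Dusp1 were higher on the ipsilateral side in 3 of 3 numbers at 24 h. The contralateral hemisphere of tMCAO animals differed from that of sham animals in 0 of 10 members at 24 h (0% of all genes) and at 7 days (0.0313%), again with 0 at an unadjusted p under 0.05. Over time, 0 of 10 members were called in the contralateral tMCAO (0% of all genes), ipsilateral sham (0.476%) and contralateral sham hemisphere (0.332%).

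The libraries of a group differed widely in these genes, and the members differed together. The within-group SD on the log2 scale was 1.998 for Fosl1, 1.35 for Fosb, 1.07 for Fos, 0.83 for Fosl2 and 0.80 for Junb, against a median of 0.24 over all genes. Of all genes, 99.9% had a smaller SD than Fosl1 and 98.8% a smaller SD than Fos. Atf3, Dusp1, Egr1 and Nr4a1 ranged from 0.49 to 0.63, and Jun had the lowest SD of the members with 0.33. Groups took up 57.3% of the variance of Fosl1 and 52.8% of that of Egr1. For Fos the share was 25.5% and for Fosl2 11.9%. Small groups take up part of the variance even where they do not differ, and the shares were not corrected for this. They were also not compared with those of all genes, so a share alone does not show a difference between groups.

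In 61 of 72 cases, that is 9 other members in 8 groups, the library highest in Fos was also the highest in the other member. In contralateral tMCAO library 2 of 24 h, sham library 3 of 7 days in either hemisphere and contralateral tMCAO library 1 of 7 days, this held for all 9 others. The ipsilateral tMCAO group of 24 h had it for 4 of 9. Within groups the highest library held between 1.78 and 8.5 times the Fos of the lowest. Library 3 of sham surgery at 7 days had 588 normalized counts of Fos on the contralateral and 867 on the ipsilateral side, where the other sham libraries of that time point had 102 to 235. Except in contralateral sham at 24 h, the library highest in Fos also had the highest total of normalized counts in its group. In ipsilateral sham at 7 days, library 3 had a total of 17926434, against 15924780 and 15949845. How often other genes were highest in these libraries was not counted.

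Deviations from the group means correlated with those of Fos at r = 0.99 for Junb, 0.97 for Fosl2 and 0.89 for Dusp1 across the 24 libraries. For Atf3 r was 0.86, for Jun and Fosl1 0.85, and for Fosb 0.83. Nr4a1 with 0.61 and Egr1 with 0.60 followed Fos less closely. These are descriptions across libraries that share group means and a common normalization. The deviations of Litaf and Adamts1 had r = 0.98 and 0.97 with those of Fos, followed by Nfil3, Ubtd1 and Ch25h at 0.97. Adamts1 encodes a secreted metalloprotease and Nfil3 a leucine zipper repressor. Of the 15972 tested genes outside the members, 619 or 3.88% had an r of at least 0.8 with Fos.

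**Figure D3:**
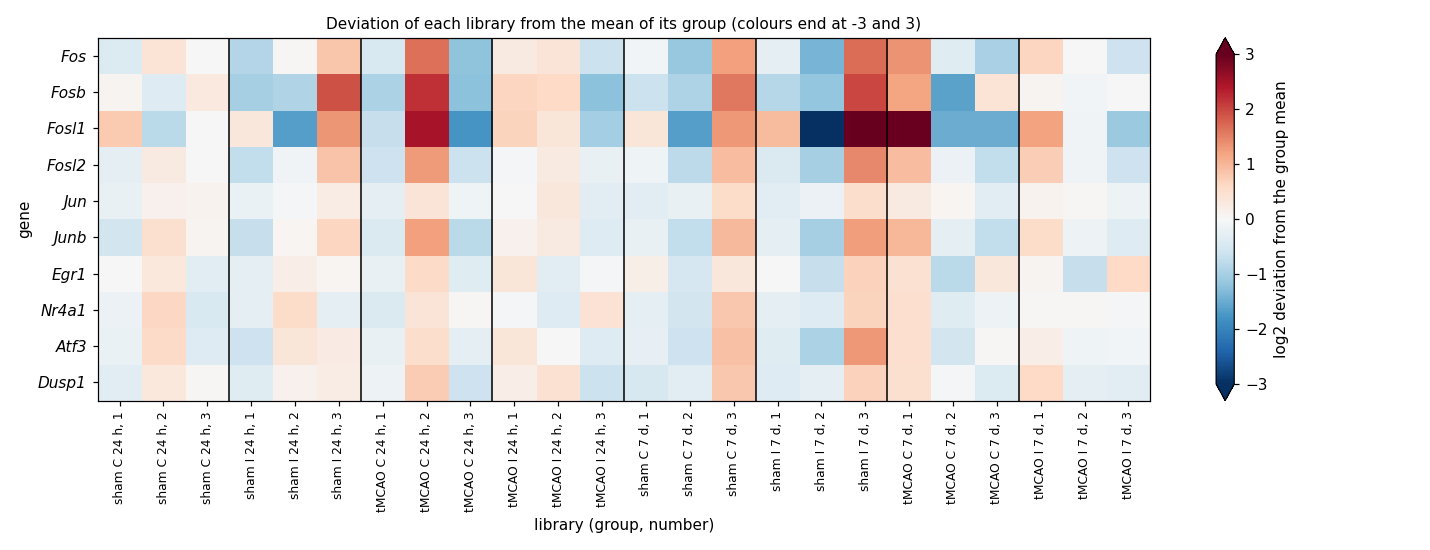
Deviation of each library from the mean of its group on the log2 scale for the 10 members, with groups separated by lines and colours ending at -3 and 3. Contralateral tMCAO library 2 of 24 h and sham library 3 of 7 days are above their group in all 10 members, and Jun, Egr1 and Nr4a1 vary the least.

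Markers of other cells moved with these deviations to unlike degrees. The mean deviation of 6 tested neutrophil markers, among them S100a8 and S100a9, correlated with that of Fos at r = 0.78 over the 24 libraries. The 7 astrocyte markers had r = 0.69, the 10 endothelial markers 0.39, the 8 neuron markers 0.20 and the 9 pericyte and mural markers -0.40. For the 7 monocyte and macrophage markers r was 0.63, for the 6 oligodendrocyte markers 0.31 and for the 5 microglia and 5 fibroblast markers -0.46 each. These means join genes of opposite sign. Among endothelial markers Cdh5 had r = 0.757 and Tek -0.859, and among monocyte and macrophage markers Cd14 had 0.953 and Adgre1 -0.332. Among mural markers Kcnj8 had 0.68 and Notch3 -0.765. The 9 heat shock genes had r = 0.67. Higher still were 3 lists described below, with 0.965 for further immediate early genes, 0.932 for AP-1 target genes and 0.924 for AP-1 partners. Lowest and highest, the neutrophil markers summed to 132 and 1262 normalized counts in the contralateral sham libraries of 7 days, and to 199 and 1730 in the ipsilateral ones, in each case with library 3 as the highest. In contralateral tMCAO library 1 of 7 days the astrocyte markers summed to 50999 normalized counts, against 17088 and 20717 in the others of its group.

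Neutrophil markers also differed between the groups. Over sham ipsilateral, 10.0% of all genes rose and 8.23% fell at 24 h, and 3.27% rose and 9.95% fell at 7 days. The neutrophil markers summed to 2693 to 6031 normalized counts in the ipsilateral hemisphere 24 h after tMCAO and to 226 to 1167 after sham, and 6 of 6 rose (median log2 difference 3.02). At 7 days the sums were 800 to 4784 against 199 to 1730, and 1 of 6 rose. Monocyte and macrophage markers summed to 10456 to 15656 normalized counts after tMCAO and to 4131 to 7384 after sham at 24 h, where 3 of 7 rose. At 7 days 0 of these 7 rose and 2 fell. Neuron markers summed to 2176 to 2949 after tMCAO and 4821 to 5346 after sham at 24 h, where 4 of 8 fell, and to 2136 to 2615 against 4960 to 7122 at 7 days, where 7 of 8 fell. Astrocyte markers fell in 5 of 7 cases at 24 h and in 3 of 7 at 7 days. Gfap went the other way at 7 days without being called. It was at 3453, 3934 and 5327 normalized counts after tMCAO and at 1075, 1008 and 3327 after sham. The part of these cells in the values of Fosl1, Fos and the other members was not tested.

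**Figure D4:**
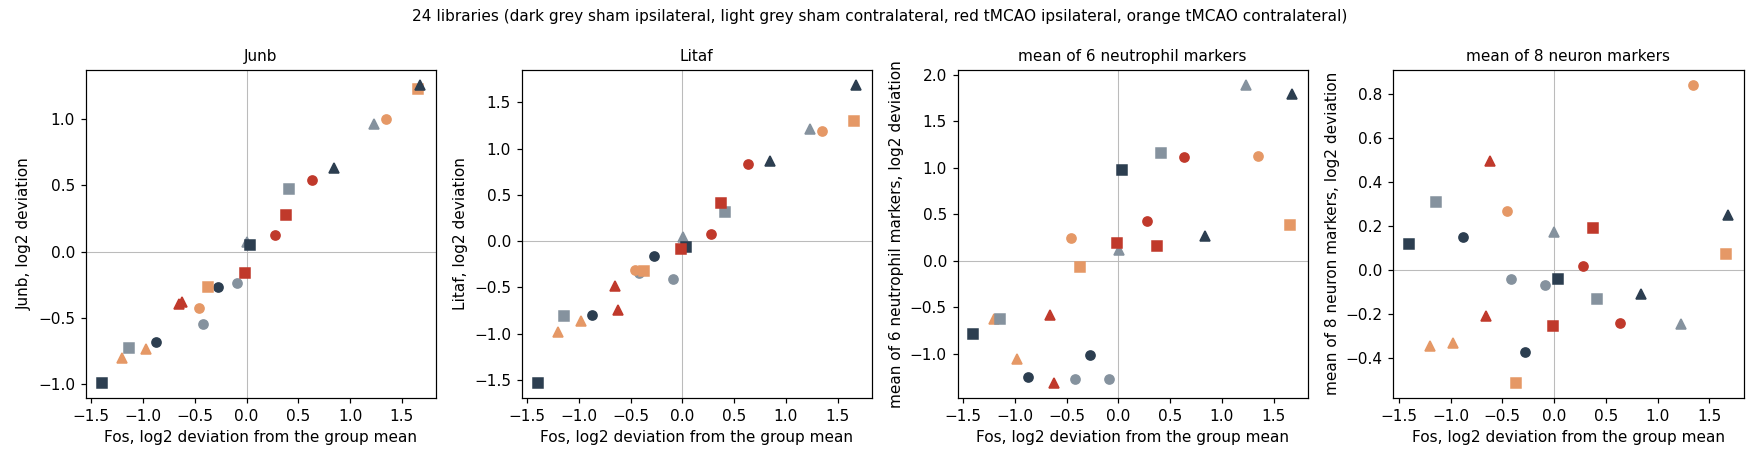
Deviation of Junb, of Litaf and of the mean of 6 neutrophil and of 8 neuron markers from their group means against that of Fos, all on the log2 scale, with one symbol per library. Junb (r = 0.99) and Litaf (r = 0.98) lie along a line with Fos, neutrophil markers (r = 0.78) scatter more, and neuron markers (r = 0.20) show little relation.

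By their levels, the genes most like Fos over the 24 libraries were Litaf (r = 0.97), Adamts1 (0.96), Ier5 (0.95), Ubtd1 and Sbno2 (0.93 each). None of these was called between tMCAO and sham ipsilateral at 24 h, with log2 differences from 0.66 for Ier5 to 1.48 for Adamts1 (adjusted p = 0.136 and 0.128). The genes most like Fosl1 were Tubb6 (r = 0.95), Hmga1, Angpt2 (0.94 each), Plaur and Tfpi2 (0.93 each). Angpt2 encodes the vessel-destabilizing ligand of Tie2 and Plaur the urokinase receptor. Of these, Tubb6 with 3.06, Tfpi2 with 2.38 and Hmga1 with 1.57 rose on the log2 scale over sham ipsilateral at 24 h, whereas Angpt2 with 1.73 and Plaur with 2.22 were not called (adjusted p = 0.0991 and 0.103). The genes were picked by correlation with Fosl1 over the same libraries, in which Fosl1 was highest in that tMCAO group. Their differences there are therefore largely set by the choice and are descriptions only.

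Lists compiled around the members include genes that AP-1 is known to regulate. The lists were chosen with earlier results of these data known, so their counts beside those of all genes are descriptions only. Timp1 and Mmp9, both among the target genes, had been reported as increased in the paper. Of 17 tested target genes, 13 rose 24 h after tMCAO over sham ipsilateral and 0 fell (10.0% and 8.23% of all genes), with a median log2 difference of 2.22 against -0.02 over all genes. Mmp3, a matrix-degrading stromelysin, went from 11.33 ± 12.1 to 1739 ± 358.9 normalized counts (SD, n = 3; log2 difference 7.65, adjusted p = 2.14e-05). The cytokine Il6 rose from 13.67 ± 15.31 to 772.7 ± 301.1 (6.26, adjusted p = 0.000322). Hmox1, which degrades heme, rose from 357 ± 94.46 to 5309 ± 2856 (3.73, adjusted p = 5.77e-07), and the protease inhibitor Timp1 from 113.3 ± 51.52 to 1205 ± 340.2 (3.47, adjusted p = 0.000765). In these 4 genes each tMCAO library exceeded each sham library, which was a condition for naming them.

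At 7 days the median log2 difference over the target genes was 0.22 over sham ipsilateral. In the ipsilateral tMCAO hemisphere, 11 of 17 fell from 24 h to 7 days, beside 8.44% of all genes.

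Among other partners and relatives of AP-1, Atf4, the effector of the integrated stress response, rose at 24 h from 3191 ± 560.8 to 6074 ± 1230 normalized counts (log2 difference 0.92, adjusted p = 0.0234). That call was lost without sham library 1 or 2.

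Of 35 further immediate early genes, 2 rose and 2 fell at 24 h, a smaller share in each direction than the 10.0% and 8.23% of all genes. Cyr61, a matricellular protein and target of YAP, went from 1413 ± 436.7 to 7890 ± 3248 normalized counts (log2 difference 2.43, adjusted p = 0.000601). Ier5l rose by 1.33 on the log2 scale (adjusted p = 0.00524). Egr4 and Nr4a2, a nuclear receptor related to Nr4a1, fell, with log2 differences of -1.89 and -0.85 (adjusted p = 0.0136 and 0.0305). The count that fell was 0 without tMCAO library 1, and 1 without tMCAO library 2 or any sham library. With only the compared groups in the fit, 9 of 35 rose.

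At 7 days 1 of 35 rose and 6 fell (3.27% and 9.95% of all genes). Klf10 rose by 0.64 (adjusted p = 0.0291), a call lost without sham library 1 or 2. Arc, Egr4, Npas4 and Egr3, which are known for their induction by neuronal activity, fell, with log2 differences of -3.80, -3.76, -2.22 and -1.87 (adjusted p = 7.65e-05, 7.57e-05, 0.0319 and 0.00699). Arc was at 12, 33 and 29 normalized counts in the ipsilateral hemisphere after tMCAO and at 169, 247 and 856 after sham. The neuron markers differed in the same libraries by a median of -2.83 on the log2 scale, with 7 of 8 called.

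Among 17 phosphatases and feedback inhibitors of MAP kinase signaling other than Dusp1, 2 rose at 24 h and 0 fell, a share near that of all genes called higher (10.0%). Dusp5, a nuclear ERK phosphatase, rose from 49 ± 38.22 to 263.3 ± 101.2 normalized counts (log2 difference 2.58, adjusted p = 0.00663), and Spred3 by 1.43 (adjusted p = 0.000151). At 7 days 0 rose and 2 fell, where 3.27% and 9.95% of all genes did. Those that fell were Dusp14 with a log2 difference of -1.23 and Spry4 with -0.62 (adjusted p = 0.000253 and 0.0161), a count of 1 without sham library 3 or tMCAO library 1. Of 23 upstream kinases and factors, 3 rose and 1 fell at 24 h, where 10.0% and 8.23% of all genes did. Mapk11, which encodes p38 beta, rose by 1.62, Map2k3 by 0.92 and Map2k2 by 0.60 (adjusted p = 0.000137, 0.0417 and 0.000667), and Mapk10, the neuronal JNK3, fell by 1.06 (adjusted p = 0.0317). At 7 days Mapk11 was higher by 0.80 and Mapk10 differed by -2.75 (adjusted p = 0.0365 and 2.73e-05). Of the calls at 24 h, 1 increase instead of 3 was called without sham or tMCAO library 1, and the decrease was lost without tMCAO library 1 or 2 or sham library 1 or 3. The call of Mapk11 at 7 days was lost without library 1 or 2 of either group.

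Of 9 heat shock genes, 4 rose at 24 h, where 10.0% of all genes did. The mitochondrial chaperones Hspe1 and Hspd1 rose by 1.08 and 0.62 (adjusted p = 7.48e-06 and 5.03e-05), and Hspb1 and Hsph1 by 0.63 and 0.61 (adjusted p = 0.0178 and 0.0475). With the libraries centred on their median, or without sham library 1, 1 of the 9 rose, and without sham library 2 or tMCAO library 1 or 2 the count was 2. At 7 days 1 of 9 fell, a share near the 9.95% of all genes. This was Hsph1 with a log2 difference of -0.80 (adjusted p = 0.0184), a call lost without sham library 3 or tMCAO library 1 or 3.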

How the data were processed

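RNA of microvessels from 24 libraries had been sequenced after stranded mRNA library preparation. The deposited table is a score, as the authors divided counts by DESeq2 size factors and rounded them, relative to all 24 libraries. The submitters' processing notes name STAR 2.5.2b, featureCounts 1.5.1, DESeq2 1.6.2 and mm10. Reads that matched several genes were left out by the authors. The paper names 4 samples as outliers and went on with 3 per group. Its number of generated samples less these outliers does not match the 24 libraries, and the step of removal is not stated. The strand setting of the counting is not given in the sources used here. Columns with the authors' comparisons (fold changes, p-values) were not used.

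Groups were taken from the labels. Log2 values with a pseudocount of 1 were fitted with limma 3.58.1 in R 4.3.3 (mean-variance trend, 8 groups, mean above 5, 13 comparisons) and adjusted by Benjamini-Hochberg. Because these values are not reads, count models were not run. The code was tested on simulated data. Figures were drawn with matplotlib 3.10.9.

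Whether same-numbered libraries came from the same animals is not given in the sources used here. Deviations of same-numbered hemispheres correlated with r over 0.1 in every pair only in sham surgery, with r from 0.15 to 0.41 at 24 h and 0.33 to 0.47 at 7 days. P-values measure the spread between pools.

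Members and lists were chosen with earlier results of these data known. Of the lists around the members, the text names the called genes without overlap with the 4 largest increases and 4 largest decreases over sham ipsilateral at each time point, of which 2 are not reported here. Genes of like pattern are the 5 with the highest Pearson correlation. Alternatives were a pseudocount of 0.5, no filter, a minimum mean of 20, median centring, replicate blocks, a fit of the 2 compared groups alone, calls without the fold limit, no trend and each library left out.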

Additional observations from a re-analysis of the deposited data

Results flagged for a closer look

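For several genes of the lists around the members, the effect of tMCAO over sham surgery in the ipsilateral hemisphere differed between 7 days and 24 h, by limma's test of the difference itself (adjusted p under 0.05). All differences below are log2 effects at 7 days minus those at 24 h. Over all tested genes, 8.12% passed this test. The genes below had been named for their calls over sham ipsilateral at 24 h or 7 days. The differences are built from those same values, so their direction is not independent of that choice. Il6 with -8.49, Mmp3 with -7.37 and Hmox1 with -3.26 had the largest among the AP-1 target genes that passed and are named here. Dusp5 differed by -3.01, Dusp14 by -1.06 and Spry4 by -1.04 among the phosphatases and feedback inhibitors. Cyr61 differed by -2.501 and Arc by -2.88 among the further immediate early genes, and the kinase Mapk10 by -1.69. The heat shock genes Hsph1, Hspe1 and Hspd1 differed by -1.42, -1.08 and -0.88. None of the 10 members passed this test, with Fosl1 closest at -5.38 (adjusted p = 0.104).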

How the results depend on the processing

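No result changed its direction with a call under any alternative, and over all alternatives 1858 log2 differences of members kept their side of the threshold, 9 gained and 13 lost a call. For the ipsilateral against the contralateral hemisphere 24 h after tMCAO, the 1 member called became 0 with a pseudocount of 0.5, 0 without the mean-variance trend and 5 with a replicate block by library number within surgery and time point (Fosl1, Fos with adjusted p = 0.00151, Junb 0.000405, Egr1 0.0263 and Nr4a1 0.0185). With each library left out it was 0 to 3. Against sham ipsilateral at 24 h the count was 2 instead of 1 with only the compared groups in the fit, and 0 to 1 with each library left out. Between the time points after tMCAO the count was 0 to 2 instead of 2 with each library left out. With only the compared groups in the fit, Fos was called there as well. For the difference of the stroke effects the count was 0 to 1 instead of 0 with each library left out. In the other 9 comparisons it was 0 throughout. The replicate block changed no other count of members, and as the correlations of same-numbered tMCAO hemispheres were 0.066 to 0.36 at 24 h and 0.059 to 0.309 at 7 days, the numbers were not taken to pair these libraries, although a shared origin was not tested. Counts of the lists against sham ipsilateral at 24 h moved further with each library left out, from 9 to 14 target genes, 2 to 4 further immediate early genes and 1 to 5 heat shock genes that rose. The cause of these shifts was not tested. Pools of 3 hemispheres, n = 3 and the wide spread of these genes limit what can be resolved: the SE of Fosl1 was 1.47.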
